A study of Mus musculus with 2 samples.

Results

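Aortic smooth muscle cells are described here as 4033 of the 35848 filtered cells of a single-cell survey of the mouse abdominal aorta. They were chosen by measured values, namely by the unique molecular identifiers (UMIs, 1 for each captured RNA molecule) that a cell held for 11 genes. A cell was a member if it held at least 5 UMIs of Myh11, Cnn1 and Lmod1 together, at most 1 of the endothelial genes Pecam1 and Cdh5, at most 1 of the leukocyte gene Ptprc, at most 5 of the fibroblast genes Dcn and Lum, and at most 2 of the pericyte-associated genes Kcnj8, Abcc9 and Steap4. Barcodes counted as cells if they had 500 or more UMIs on 200 or more genes and less than 20% of UMIs on mitochondrial genes. By this rule there were 3222 Control members and 811 AngII+HS members. Each matrix was taken for its recorded sample, but the barcode list beside it holds the other matrix's number of barcodes, and whether the matrices were exchanged, which would turn every direction given here, was not tested.

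Smooth muscle cells form the media of the aorta, where they contract through actin and myosin filaments and lay down the elastic lamellae, collagen and proteoglycans that bear the load of the pulse. Their contractile genes are switched on by serum response factor (SRF) together with its cofactor myocardin. In injured or aneurysmal arteries the cells are known to shift between this contractile state and states that make more matrix, proteases or inflammatory mediators.

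The mice were 5-month-old male C57BL/6J. The AngII+HS mice received angiotensin II by minipump at 1.5 µg/kg/min and drank water with 0.9% NaCl and 0.2% KCl, a model of abdominal aortic aneurysm, and the Control mice received normal saline. Suprarenal abdominal aortas were taken at 28 days, digested with collagenases, hyaluronidase and DNase, and loaded as 1 droplet library per condition. The design text speaks of 5 mice pooled per library, whereas the protocol text names 1 mouse for Control and 2 for AngII+HS. With 1 library per condition no difference below has a replicate check, and no test or p-value was computed. Levels are given as CPM, that is UMIs of a gene summed over the members of a library, divided by the sum over all genes and multiplied by 1000000, and all intervals cover counting error only. The members held 29772925 UMIs in Control and 6208703 in AngII+HS, with medians of 9186 and 7110 UMIs per cell, so that the AngII+HS values are the less precise ones.

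The identity of the members was checked on 8 smooth muscle markers outside the rule, which stood between 425 and 17060 CPM in AngII+HS. A gene is called measured here if it had a mean of at least 10 CPM over the libraries. Acta2, the smooth muscle actin, stood at 13456 CPM in Control and 17060 CPM in AngII+HS, and Tagln, which encodes the actin-binding protein transgelin, at 9807 CPM in Control and 12914 CPM in AngII+HS. Fibroblasts of the same libraries, chosen by at least 10 UMIs of Dcn and Lum, held 357 and 380 CPM of Acta2. Npnt, Itga8 and Synpo2 stood between 532 and 1380 CPM in both libraries. Among the 8 endothelial markers outside the rule only Flt1 was measured (59.6 and 40.7 CPM, log2 ratio -0.55), and the 7 T and B cell markers summed to 0.739 CPM in Control and 5.15 CPM in AngII+HS, with Cd3g at 0 UMIs in both. Of the 8 pericyte markers outside the rule 4 were measured, 3 of them higher and 2 past 2-fold, and their sum was 5376 CPM in Control and 5434 CPM in AngII+HS. Rgs5, which arterial smooth muscle also makes, was the most abundant (5169 and 5027 CPM, log2 ratio -0.04), followed by Pdgfrb (124 and 169 CPM, log2 ratio 0.45), Notch3 (74.7 and 173 CPM, log2 ratio 1.21) and Ndufa4l2 (1.81 and 28.2 CPM, log2 ratio 3.96). Vtn and Higd1b stood at 0.0672 and 1.14 CPM in Control, and in AngII+HS their levels were 1.61 and 15.8 CPM.

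Leukocyte RNA differed between the libraries. All 7 neutrophil markers had UMIs in the members of both libraries, and their sum was 8.53 CPM in Control and 537 CPM in AngII+HS, with S100a9 the most abundant (3.56 and 192 CPM, log2 ratio 5.76). The 8 macrophage markers summed to 27.98 and 331 CPM, led by Lyz2 (9.04 and 131 CPM, log2 ratio 3.86). T and B cells of the same libraries, which should make neither set, held 12.3 and 1815 CPM of the neutrophil markers and 141 and 1145 CPM of the macrophage markers. The T and B cells therefore served as a reading of RNA that came from other cells, although they were chosen without a limit on fibroblast genes and held 1036 CPM of Dcn in AngII+HS. Immunoglobulin RNA (Igkc) stood at 1.58 CPM in Control and 895 CPM in AngII+HS, and 2 AngII+HS members with 2284 and 2165 UMIs held most of it. The 8 fibroblast markers outside the rule summed to 72.9 and 215 CPM, led in AngII+HS by Smoc2 (10.6 and 144 CPM, log2 ratio 3.75). Of the 3 that were measured, Serpinf1 was higher too (2.65 and 17.4 CPM, log2 ratio 2.71). Lama2, the most abundant of them in Control, was lower (45.2 and 26.4 CPM, log2 ratio -0.77). The part of these RNAs in the results was not tested. The level in T and B cells is given beside some of the genes that these cells also held. Not every such gene carries it in the text below. In the AngII+HS T and B cells Mgp stood at 1251 CPM, Nfkbia at 1242 CPM, Fn1 at 477 CPM and Bgn at 445 CPM.

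The limits of the rule acted unevenly. Of the cells with at least 5 UMIs of Myh11, Cnn1 and Lmod1, 6324 in Control and 1487 in AngII+HS, the limit on Kcnj8, Abcc9 and Steap4 was the only one not met by 2178 (34.4%) and 204 (13.7%). These excluded cells held 12604 and 15937 CPM of Acta2 and 344 and 354 CPM of Abcc9, a potassium channel subunit that smooth muscle also makes. Of the other pericyte genes, Steap4 stood at 4.42 and 61.3 CPM in them, Vtn at 0.434 and 12.5 CPM, Ndufa4l2 at 0.355 and 33.1 CPM and Higd1b at 0.237 and 11.5 CPM, where the AngII+HS members held 4.67, 1.61, 28.2 and 15.8 CPM. The limit on Dcn and Lum was not met by 2.91% of those cells in Control and 22.1% in AngII+HS. Just inside the lower threshold, the members with 5 or 6 UMIs of the 3 genes held 4858 CPM of Acta2 in Control and 4201 CPM in AngII+HS, and just outside it the cells with 3 or 4 UMIs held 3490 and 3103 CPM. Members with 5 to 9 UMIs made up 4.72% of the members in Control and 19.1% in AngII+HS.

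Members were 28.5% of the filtered cells in Control (exact Clopper-Pearson 95% interval 27.7 to 29.4%, 3222 of 11288 cells) and 3.30% in AngII+HS (3.08 to 3.53%, 811 of 24560 cells), a log2 ratio of -3.11. The AngII+HS share was the lower one under every threshold and cell filter tried. A share of cells in a suspension does not count cells in the wall, and a smaller number of smooth muscle cells cannot be told apart here from a larger number of other cells.

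Across genes the members of the libraries were alike for most of the transcriptome. Of 8241 genes with a mean level of at least 10 CPM (rule genes left out), 307 (3.73%) were at least 2-fold higher and 211 (2.56%) at least 2-fold lower in AngII+HS. The median log2 ratio, AngII+HS over Control, was 0.03, and the middle 50% of genes lay between -0.23 and 0.28. Medians over groups of genes below were computed with 0.5 UMIs added to each sum, and each is to be read against these background values.

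**Figure D1:**
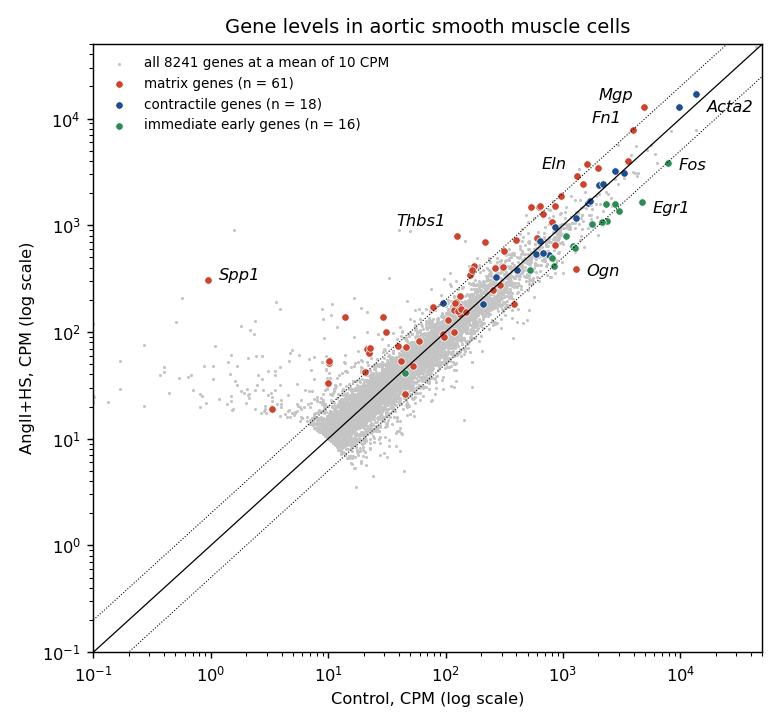
Each point is a gene, with its CPM summed over the Control members on the x axis and over the AngII+HS members on the y axis, both on log scales; the solid line marks equal levels and the dotted lines a 2-fold difference. Contractile genes lie near the line, matrix genes such as Mgp, Eln and Thbs1 above it, and immediate early genes such as Fos and Egr1 below it.

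Among cells chosen for UMIs of contractile genes, which leaves out any cell that had lost them, the other contractile genes were at about the same level in both libraries. None of 18 measured contractile genes was 2-fold higher or lower, 9 were higher and 9 lower, and their median log2 ratio was 0.06 (-0.04 with TMM scaling, a scaling that trims the genes of extreme ratio). The median followed the threshold of the rule, at -0.12, 0.06, 0.12 and 0.17 with at least 2, 5, 10 and 20 UMIs of the rule genes. The most abundant ones were somewhat higher in AngII+HS, Acta2 by a log2 ratio of 0.34 (95% counting interval 0.33 to 0.35) and Tagln by 0.397 (0.39 to 0.41). Actg2, the enteric smooth muscle actin, had the highest ratio (95.02 and 188 CPM, log2 ratio 0.98). The lowest ratio was that of Synpo2, an actin-bundling protein of the Z-disc (765 and 532 CPM, log2 ratio -0.52). Mylk, the myosin light chain kinase, and the caldesmon gene Cald1 stood at 1291 CPM in Control and 1166 CPM in AngII+HS and at 3290 CPM in Control and 3085 CPM in AngII+HS. Of the genes the rule used, Myh11, the smooth muscle myosin heavy chain, stood at 3167 CPM in Control and 2694 CPM in AngII+HS, Cnn1 at 921 and 956 CPM and Lmod1 at 646 and 541 CPM, values that describe the choice of cells only. Contractile sums were 42671 CPM in Control and 49936 CPM in AngII+HS, against 1452 and 1163 CPM in the T and B cells.

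Several transcription factors of smooth muscle were lower in AngII+HS by larger ratios than any contractile gene. Of 14 measured factors 7 were higher, 1 was 2-fold lower and none 2-fold higher (median log2 ratio -0.03). Gata6, a zinc finger factor of arterial smooth muscle, was the one past 2-fold, at 272 CPM in Control and 121 CPM in AngII+HS (log2 ratio -1.17, 95% counting interval -1.28 to -1.06). Myocd, which encodes myocardin, stood at 646 CPM in Control and 425 CPM in AngII+HS (log2 ratio -0.603, 95% counting interval -0.66 to -0.54). Klf4, a factor that represses contractile genes, and Foxo3 were lower as well, Klf4 by a log2 ratio of -0.87 (872 and 475 CPM) and Foxo3 by -0.68. Srf itself was at 21.3 CPM in Control and 20.1 CPM in AngII+HS, and Tead1 and Mef2c differed by log2 ratios of 0.06 and 0.12. Elk3 had the highest ratio of the measured factors (29.4 and 45.4 CPM, log2 ratio 0.63, 95% counting interval 0.43 to 0.82). T and B cells held more of it, 79.4 and 58.7 CPM.

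SRF binds a short DNA motif, the CArG box, that contractile genes and immediate early genes share, so the promoters that hold it are shown for members of both groups. In the 250 bases before the start sites given by RefSeq on GRCm38.p6, the motif, searched on both strands, was found for 2 of 16 contractile genes (12.5%), Myl9 and Vcl, and for 2 of 14 immediate early genes (14.3%), Egr2 and Zfp36, against 1.62% of all 27025 genes with a promoter in the table. It was found for none of 10 collagen genes. At the share over all genes a hit among so few would be rare, so this does not set them apart. Only exact matches were counted, CC and GG around a fixed run of A or T. Sites with other letters or further from the start were not searched. The windows run 5′ to 3′ on the gene's strand, from 20 bases before the motif to 20 bases after it, with the motif in capitals.
Myl9, chr2:156775283-156775332, plus strand: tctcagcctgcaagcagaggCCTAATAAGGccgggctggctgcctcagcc
Vcl, chr14:20929151-20929200, plus strand: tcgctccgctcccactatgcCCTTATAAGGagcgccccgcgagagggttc
Egr2, chr10:67537474-67537523, plus strand: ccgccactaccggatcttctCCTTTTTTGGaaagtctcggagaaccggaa
Zfp36, chr7:28379257-28379306, minus strand: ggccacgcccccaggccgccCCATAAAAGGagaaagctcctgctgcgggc
Among these 4 genes, Myl9, a myosin light chain, stood at 2013 CPM in Control and 2362 CPM in AngII+HS and Vcl, which encodes vinculin, at 672 CPM in Control and 550 CPM in AngII+HS. Egr2 stood at 45.5 CPM in Control and 40.9 CPM in AngII+HS, and Zfp36, an RNA-binding protein that speeds the decay of cytokine mRNAs, at 2148 CPM in Control and 1065 CPM in AngII+HS (log2 ratio -1.01, 95% counting interval -1.05 to -0.98). A match to these letters is a description of the sequence and not a measured binding site.

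The collagen and matricellular groups had the highest medians in AngII+HS of the groups with at least 5 measured genes, markers of other cell types aside. Of the collagen genes outside the basement membrane, all 13 measured were higher and 7 were past 2-fold (median log2 ratio 1.03), where 3.73% of all genes were. Their median was 0.34 with the level in T and B cells subtracted. Col8a1, a short-chain collagen of the vessel wall, had the highest ratio of them, at 29.2 CPM in Control and 138 CPM in AngII+HS (log2 ratio 2.24, 95% counting interval 2.099 to 2.37). Col6a3 (175 and 412 CPM, log2 ratio 1.23), Col5a2 (161 and 343 CPM, log2 ratio 1.09) and Col15a1 (78.7 and 171 CPM, log2 ratio 1.12) were past 2-fold as well. The fibrillar genes Col1a1 and Col3a1 stood at 534 CPM in Control and 1473 CPM in AngII+HS and at 969 CPM in Control and 1888 CPM in AngII+HS. In T and B cells, however, Col1a1 was at 175 and 1673 CPM and Col3a1 at 153 and 1501 CPM, so that their AngII+HS levels in the members were near those of cells that make no collagen. Col1a2 was alike (1509 CPM in AngII+HS members and 1396 CPM in AngII+HS T and B cells). Col14a1, one of the 7, was lower in the members (42.2 CPM) than in the T and B cells (152 CPM). Detection differed more than level when all AngII+HS cells were thinned to the same number of UMIs. A UMI of Col1a1 was then found in 80.9% of the members against 37.3% of the T and B cells. For Col3a1 the shares were 82.3% and 35.9%, and the cause of this difference was not tested. The members held 0.238 times the level of neutrophil and macrophage markers of T and B cells in Control and 0.293 times in AngII+HS. The Control factor rests on 99 T and B cells and pools unlike sets. Members and T and B cells held 8.53 and 12.3 CPM of the neutrophil markers, but 27.98 and 141 CPM of the macrophage markers. The AngII+HS factor includes an S100a8-rich cluster of members described below. How far this moved the values left after subtraction was not tested. When the T and B cell level of a gene was multiplied by these factors and subtracted, 492 and 983 CPM of Col1a1 and 933 and 1447 CPM of Col3a1 were left. Subtracting the whole T and B cell level instead turned both ratios, with nothing left of Col1a1 in AngII+HS and a log2 ratio of -1.08 for Col3a1. Col8a1 was at 48.96 CPM and Col6a3 at 60.5 CPM in the AngII+HS T and B cells, well under the members.

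Elastic fibre genes were mostly higher. Of 14 measured genes 12 were higher, 4 past 2-fold, and 1 was past 2-fold lower (median 0.45). Eln, which encodes elastin, stood at 1315 CPM in Control and 2870 CPM in AngII+HS (log2 ratio 1.13, 95% counting interval 1.100 to 1.15), and its ratio was under 2-fold with the rule applied to thinned cells (0.87), without the highest doublet scores (0.93) and at 20 UMIs of the rule genes (0.97). T and B cells held 106 and 279 CPM. Fbln2 (10.1 and 50.7 CPM, log2 ratio 2.32), the latent TGF-beta binding protein gene Ltbp2 (21.3 and 68.9 CPM, log2 ratio 1.69) and the cross-linking enzyme gene Loxl2 (22.4 and 63.8 CPM, log2 ratio 1.51) were the others past 2-fold, of which Fbln2 stood at 54.3 CPM in the AngII+HS T and B cells. Lox and Loxl1, the cross-linking enzymes at a higher level, differed by log2 ratios of 0.27 and -0.05. Ltbp4, whose product is needed for elastic fibre assembly, was the 1 past 2-fold lower (380 and 184 CPM, log2 ratio -1.05).

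Matricellular genes had a median of 1.24, or 0.91 after the full subtraction of T and B cell levels, with 14 of 16 higher and 9 past 2-fold. Mgp, the matrix Gla protein that inhibits calcification, was the most abundant of them in both libraries, at 4882 CPM in Control and 12817 CPM in AngII+HS (log2 ratio 1.39, 95% counting interval 1.38 to 1.41). Fn1, which encodes fibronectin, stood at 3917 CPM in Control and 7744 CPM in AngII+HS (log2 ratio 0.98, 95% counting interval 0.97 to 0.999). Thbs1 (thrombospondin 1) stood at 125 CPM in Control and 786 CPM in AngII+HS (log2 ratio 2.65, 95% counting interval 2.59 to 2.72), with 89.95 and 413 CPM in T and B cells, and 9.88% of Control and 42.4% of AngII+HS members held a UMI of it once every cell was thinned to 2000 UMIs. Postn (periostin) (624 and 1498 CPM, log2 ratio 1.26), Sparc (1604 and 3729 CPM, log2 ratio 1.22) and Sparcl1 (215 and 690 CPM, log2 ratio 1.68) were past 2-fold too. T and B cells held 210 CPM of Sparc in Control and 1249 CPM in AngII+HS. Spp1 (osteopontin) had the highest ratio of the group, at 0.9405 CPM in Control and 308 CPM in AngII+HS, but T and B cells held 374 CPM in AngII+HS, and a UMI of Spp1 was found in 11% of the thinned AngII+HS members against 13.3% of the equally thinned T and B cells. The scaled subtraction left 199 CPM of Spp1 in AngII+HS and 0 in Control, and the source of this RNA was not tested. The galectin gene Lgals3 stood at 139 CPM in the AngII+HS members and 250 CPM in the AngII+HS T and B cells, and the scaled subtraction left 66.1 CPM in AngII+HS and 0 in Control.

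Among the proteoglycans, 6 of 7 measured genes were higher and 3 past 2-fold (median 0.79, or 0.49 after the scaled and 0.37 after the full subtraction). Bgn (biglycan), the most abundant, stood at 1981 CPM in Control and 3426 CPM in AngII+HS (log2 ratio 0.79, 95% counting interval 0.77 to 0.81). Acan (aggrecan), the large proteoglycan of cartilage, stood at 10.1 CPM in Control and 53.5 CPM in AngII+HS (log2 ratio 2.41, 95% counting interval 2.18 to 2.64), or a log2 ratio of 1.735 with stricter limits on genes of other cell types, with 3.71 CPM in the AngII+HS T and B cells. Ogn (osteoglycin) went the other way, at 1278 CPM in Control and 391 CPM in AngII+HS (log2 ratio -1.71, 95% counting interval -1.77 to -1.65), and a UMI of it was found in 86.1% of Control and 43.6% of AngII+HS members thinned to 2000 UMIs. In the basement membrane group, 1 of 11 genes was past 2-fold, the laminin gene Lamb2 (168 and 383 CPM, log2 ratio 1.19). The type IV collagen genes Col4a1 (602 and 754 CPM, log2 ratio 0.33) and Col4a2 (400 and 728 CPM, log2 ratio 0.86) and the perlecan gene Hspg2 (315 and 573 CPM, log2 ratio 0.86) were higher by less (group median 0.15).

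**Figure D2:**
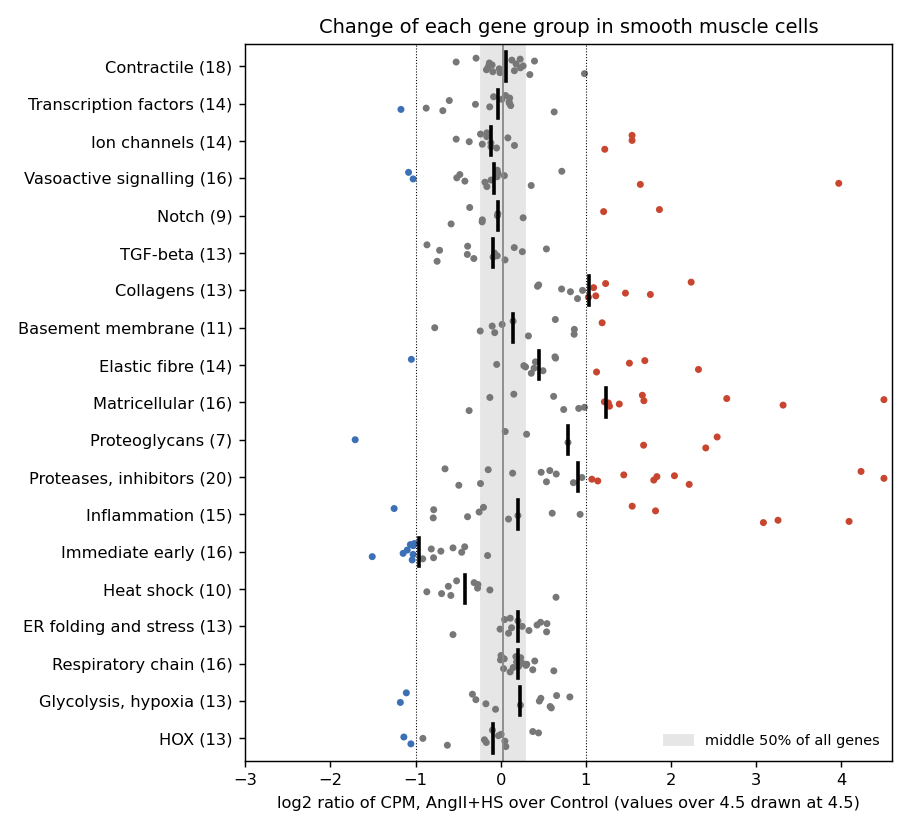
Each point is a gene of the group named on the left (number of genes at a mean of 10 CPM in brackets), at its log2 ratio of CPM in AngII+HS over Control members; black bars are group medians, red and blue points lie past 2-fold, and the grey band holds the middle 50% of all 8241 genes. Genes past the ends of the axis, such as Spp1, are drawn at its edge. The medians of the collagen and matricellular groups lie at 1.03 and 1.24, that of the contractile group at 0.06 and that of the immediate early group at -0.96.

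Of 20 measured matrix proteases and inhibitors 16 were higher and 9 past 2-fold (median 0.90, or 0.49 after the scaled and 0.11 after the full subtraction of T and B cell levels). Adamts4, an enzyme that cuts aggrecan and versican, stood at 21.4 CPM in Control and 99.2 CPM in AngII+HS (log2 ratio 2.21, 95% counting interval 2.05 to 2.38). T and B cells held 29.98 CPM of it in Control, above the members, and 12.02 CPM in AngII+HS, so that the full subtraction left nothing in Control. Its log2 ratio was 2.75 after the scaled subtraction, 2.98 with the rule applied to thinned cells and 1.51 at 20 UMIs of the rule genes. The plasminogen activator gene Plat (41.04 and 112 CPM, log2 ratio 1.45) and the cathepsin genes Ctsl (233 and 489 CPM, log2 ratio 1.07) and Ctsd (194 and 428 CPM, log2 ratio 1.14) were past 2-fold, the cathepsins at 247 and 302 CPM in the AngII+HS T and B cells. Timp1, Mmp3, Mmp2, Ctsk and Ctss were past 2-fold too, but each stood higher in the T and B cells of AngII+HS than in the members, for Timp1 at 322 against 166 CPM. The inhibitor gene Timp3, the most abundant of the group in Control, stood at 1267 CPM in Control and 1144 CPM in AngII+HS (log2 ratio -0.15, 95% counting interval -0.18 to -0.11).

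Inflammation genes gave no common direction. Of 15 measured genes 5 were past 2-fold higher and 1 past 2-fold lower (median 0.20). The chemokine genes Ccl2 and Ccl7 stood at 183 and 88.6 CPM in AngII+HS members and at 559 and 436 CPM in AngII+HS T and B cells, and C3 and Il6 were likewise higher in the T and B cells. Vcam1, an adhesion molecule for leukocytes, stood at 54.8 CPM in Control and 160 CPM in AngII+HS (log2 ratio 1.54, 95% counting interval 1.43 to 1.66), and 53.2 and 118 CPM were left after the scaled subtraction. The AngII+HS T and B cells held 141 CPM of Vcam1, and its log2 ratio was -1.36 with their whole level subtracted and 0.46 with stricter limits on genes of other cell types. Socs3, the feedback inhibitor of cytokine signalling, was lower (785 and 330 CPM, log2 ratio -1.25), as were the NF-kB inhibitor gene Nfkbia (1624 and 942 CPM, log2 ratio -0.79) and Cebpd (413 and 239 CPM, log2 ratio -0.79). The median was negative without a set of Notch3-rich cells (-0.13), after the scaled subtraction of T and B cell levels (-0.81) and with the highest doublet scores removed (-0.05). Of 9 measured genes of the interferon and MHC class I group, Ifitm3 (109 and 279 CPM, log2 ratio 1.36) and Isg15 (6.28 and 28.5 CPM, log2 ratio 2.18) were past 2-fold higher and Irf1 past 2-fold lower (500 and 249 CPM, log2 ratio -1.003), and all but Irf1 and Ifi27 stood higher in AngII+HS T and B cells than in the members.

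**Figure D3:**
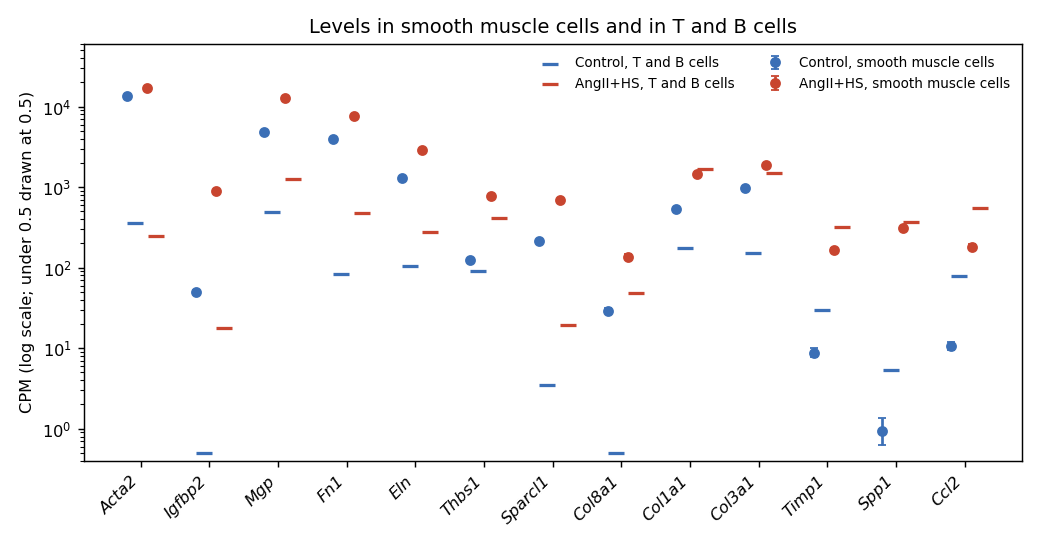
CPM on a log scale for 13 genes, with Control in blue and AngII+HS in red; round points are smooth muscle cells with 95% Poisson intervals (counting error only, mostly smaller than the points), and horizontal marks are the same library's T and B cells (levels under 0.5 CPM are drawn at 0.5). Igfbp2, Mgp, Fn1 and Eln stood well over the T and B cell level in AngII+HS, whereas Col1a1, Timp1, Spp1 and Ccl2 stood at or under it.

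All 16 immediate early genes, which cells switch on within minutes of a stimulus, were lower in AngII+HS, and 8 were past 2-fold, where 2.56% of all genes were (median -0.96). Fos, a subunit of the AP-1 factor, stood at 7788 CPM in Control and 3819 CPM in AngII+HS (log2 ratio -1.03, 95% counting interval -1.05 to -1.01), with a ratio just under 2-fold at 10 and 20 UMIs of the rule genes (-0.98 and -0.93) and without the Notch3-rich cells described below (-0.97), and Egr1 at 4699 CPM in Control and 1652 CPM in AngII+HS (log2 ratio -1.51, 95% counting interval -1.54 to -1.48). Jun (2369 and 1107 CPM, log2 ratio -1.097), Atf3 (2199 and 1070 CPM, log2 ratio -1.04) and the orphan receptor gene Nr4a1 (1275 and 612 CPM, log2 ratio -1.06) were past 2-fold as well. In fibroblasts of the same libraries the median of the 16 genes was -0.09, and their sum was 20614 CPM in Control and 19113 CPM in AngII+HS, against 34835 and 17623 CPM in smooth muscle cells. The T and B cells held 6422 and 7200 CPM. Of the 10 heat shock genes 9 were lower, none past 2-fold (median -0.41), from Hsp90aa1 (1436 and 788 CPM, log2 ratio -0.87) to Cryab (450 and 706 CPM, log2 ratio 0.65), a small heat shock protein of muscle that was the only one higher.

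Nuclear genes of the respiratory chain and mitochondrially encoded genes differed in direction. Of 16 nuclear genes 15 were higher, none past 2-fold (median 0.20, or -0.75 after the full subtraction of T and B cell levels), with the highest ratio for Cox5a (163 and 251 CPM, log2 ratio 0.62) and equal levels of Sdha (72.4 and 72.3 CPM). Of 10 mitochondrially encoded genes 9 were lower (median -0.65, or -0.39 with equal weight per cell and -0.16 after the full subtraction, which thus left both medians negative), with mt-Atp6 at 13466 CPM in Control and 7796 CPM in AngII+HS and mt-Cytb the exception (3807 and 4552 CPM, log2 ratio 0.26). Of the mitochondrially encoded genes only mt-Nd3 was past 2-fold, and it was lower (1003 and 361 CPM, log2 ratio -1.48). T and B cells make the genes of the respiratory chain themselves, at a summed level of 2288 and 3260 CPM against 3474 and 3997 CPM in the members. The median share of mitochondrial UMIs per member was 4.35% in Control and 2.74% in AngII+HS, and over all filtered cells it was 3.60% and 1.09%. Of 13 measured genes of glycolysis and hypoxia, the hexokinase gene Hk2 (367 and 162 CPM, log2 ratio -1.18) and Vegfa (64.2 and 29.8 CPM, log2 ratio -1.11) were past 2-fold lower, though the ratio of Hk2 was just under 2-fold with the rule applied to thinned cells (-0.99) and -3.64 after the full subtraction, whereas Gapdh (369 and 552 CPM, log2 ratio 0.58) and Pgk1 (46.7 and 81.98 CPM, log2 ratio 0.81) were higher. The 13 genes of endoplasmic reticulum folding had a median of 0.21 and none past 2-fold. Ddit3 and Aldoa, which each stand under 2 gene IDs in the files, were left out of these groups.

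Of 16 measured genes of vasoactive signalling, only the endothelin receptors were past 2-fold higher. Ednra and Ednrb stood at 13.9 CPM in Control and 43.3 CPM in AngII+HS and at 2.52 CPM in Control and 39.5 CPM in AngII+HS (log2 ratios 1.64 and 3.97). Of the angiotensin II receptors, Agtr1b was at 16.96 CPM in Control and 21.7 CPM in AngII+HS (log2 ratio 0.36, 95% counting interval 0.07 to 0.64), Agtr1a stayed under 10 CPM on average (26 UMIs in Control and 21 in AngII+HS), and no UMI of Agtr2 was found, which allows up to 3 UMIs, or 0.101 CPM in Control and 0.483 CPM in AngII+HS. Rgs2, a brake on G protein signalling, was lower (82.5 and 38.98 CPM, log2 ratio -1.08), as was the natriuretic peptide clearance receptor gene Npr3 (26.6 and 13.05 CPM, log2 ratio -1.03). Rgs5, the most abundant gene of the group, was at 5169 CPM in Control and 5027 CPM in AngII+HS. The genes of nitric oxide and cyclic GMP signalling Prkg1, Gucy1a1 and Pde5a differed by log2 ratios of -0.03, -0.18 and -0.48. Of 14 ion channel and pump genes 3 were past 2-fold higher, the calcium-activated chloride channel gene Ano1 (32.4 and 75.5 CPM, log2 ratio 1.22), the phospholamban gene Pln (17.8 and 51.9 CPM, log2 ratio 1.54) and the potassium channel gene Kcnk3 (7.96 and 23.2 CPM, log2 ratio 1.54), and the most abundant, Atp2a2, was at 556 CPM in Control and 537 CPM in AngII+HS. Kcnma1, the pore of the BK potassium channel that relaxes arteries, was lower (496 and 345 CPM, log2 ratio -0.52), while the L-type calcium channel gene Cacna1c was not (262 and 293 CPM, log2 ratio 0.16).

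Of 9 Notch genes, the receptor gene Notch3 (74.7 and 173 CPM, log2 ratio 1.21) and the target Nrarp (5.58 and 20.3 CPM, log2 ratio 1.86) were past 2-fold higher, whereas the targets Hes1, Hey2 and Heyl had log2 ratios of -0.58, -0.22 and -0.22. The 13 TGF-beta genes had a median of -0.09 with none past 2-fold. Tgfb2, the most abundant ligand in Control, stood at 344 CPM in Control and 209 CPM in AngII+HS (log2 ratio -0.72, 95% counting interval -0.801 to -0.63), and Tgfb3 at 85.1 CPM in Control and 124 CPM in AngII+HS (log2 ratio 0.54, 95% counting interval 0.42 to 0.65).

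Part of these differences lay in a minor set of cells. The members were clustered (Leiden method on 2000 variable genes and 20 principal components, resolution 0.3), a step added after the spread of matrix levels between cells had been seen. Of 7 clusters, most held cells of mainly 1 library. Clusters of 1246, 1181 and 480 Control members held 8, 9 and 5 AngII+HS members, and 627 of the 811 AngII+HS members fell into a cluster with 86 Control members. These clusters cannot be told apart from the libraries. A further cluster held 129 Control members (4.00%) and 117 AngII+HS members (14.4%) and was the one with the highest Notch3 level, 514 and 1048 CPM. Its cells held 12986 and 11313 CPM of Acta2 and little Sost (90.3 and 16.6 CPM, against 968 and 1419 CPM in the other members). Higd1b, a pericyte marker, was at 23.4 and 114 CPM there, and Abcc9, which the rule limits, at 32.98 and 29.8 CPM. The genes that set this cluster apart also separate the libraries, so its sizes are given as the number of cells concerned and not as a change in a cell type, and the cluster was given no cell type name.

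Values with and without the Notch3-rich cells differed by gene. Outside the cluster the log2 ratio of Notch3 was 0.46 (57.02 and 78.5 CPM), under 2-fold, while inside the cluster it was past 2-fold (1.03). Ednra, Ednrb, Pln and Nrarp stood at 290, 327, 416 and 174 CPM inside the cluster in AngII+HS. Outside it their levels in Control and AngII+HS were lower, for Ednra 7.27 and 16.8 CPM (log2 ratio 1.21), for Ednrb 1.57 and 8.56 CPM (2.44), for Pln 4.47 and 12.7 CPM (1.51) and for Nrarp 0.874 and 3.75 CPM (2.11), of which only Ednra had a mean of at least 10 CPM and counted as measured there. The AngII+HS T and B cells held 11.7 CPM of Ednrb and 6.01 CPM of Nrarp, above the AngII+HS members outside the cluster. They held 5.30 CPM of Ednra and 0.354 CPM of Pln, under those members. Klf4 was past 2-fold lower outside it (867 and 416 CPM, log2 ratio -1.06) and level inside it (995 and 1025 CPM). Of the matrix genes, Mgp stood at 4812 and 13955 CPM outside the cluster and at 6625 and 2245 CPM inside it, and Eln at 1321 and 3142 CPM outside and 1178 and 343 CPM inside, so that both were higher in AngII+HS outside the cluster and lower inside it. Adamts4 was among the leading genes of the cluster (323 and 741 CPM) and stood at 9.26 and 30.1 CPM outside it (log2 ratio 1.71), and the ratio of Ltbp4 outside it was -0.95, under 2-fold. Medians of the collagen, elastic fibre and contractile groups without the cluster were 1.09, 0.51 and 0.06. A smaller cluster of 39 AngII+HS members and 1 Control member carried 1849 CPM of S100a8 beside 13727 CPM of Acta2, and without either cluster S100a8 in the AngII+HS members stood at 26 CPM.

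The 12 genes with the highest ratios were taken among genes at least 3 times the T and B cell level, a limit that some met only in AngII+HS. Procr met it narrowly there (67.6 against 22.1 CPM). In Control, Adamts4 stood at 21.4 CPM against 29.98 CPM in T and B cells, and Ntrk2 at 13.97 against 10.6 CPM. The 12 were led by Igfbp2, which encodes a binding protein for insulin-like growth factors (protein-coding, chromosome 1, 72863606 to 72891634 on GRCm39). It stood at 49.6 CPM in Control and 886 CPM in AngII+HS (log2 ratio 4.16, 95% counting interval 4.08 to 4.24), and a UMI of it was found in 4.5% of Control and 36.7% of AngII+HS members thinned to 2000 UMIs, against 0% and 4.14% of T and B cells. Its fibroblast levels were 1.25 and 27.9 CPM (log2 ratio 4.48). Outside the Notch3-rich cluster it stood at 46.5 and 980 CPM. Ankrd1, a stretch-responsive gene of muscle, stood at 21.4 CPM in Control and 70.7 CPM in AngII+HS (log2 ratio 1.72, 95% counting interval 1.55 to 1.902), or a log2 ratio of 0.93 with stricter limits on genes of other cell types, and the gamma-synuclein gene Sncg at 108 CPM in Control and 357 CPM in AngII+HS (log2 ratio 1.72, 95% counting interval 1.64 to 1.799). Procr, S1pr3 and Ntrk2, which encode the endothelial protein C receptor, a sphingosine 1-phosphate receptor and a neurotrophin receptor, were also among the 12 (log2 ratios 3.796, 2.45 and 2.13) and stood at 564, 396 and 439 CPM inside the Notch3-rich cluster of AngII+HS against 14.3, 20.2 and 20.5 CPM outside it, where their log2 ratios were 4.01 (Procr at a mean under 10 CPM), 2.31 and 1.11. The AngII+HS T and B cells held 22.1, 15.4 and 3.71 CPM of these genes, for Procr more than the members outside the cluster. Sncg and Aspn were also leading genes of that cluster, Sncg at 1057 and 1265 CPM inside it and 70.1 and 259 CPM outside, and Aspn at 333 and 433 CPM inside it and 18.9 and 63.7 CPM outside. Their log2 ratios were 0.26 and 0.38 inside the cluster and 1.89 and 1.75 outside it. Acan, Adamts4, Sparcl1 and Aspn, given above or below, and Pakap (9.67 and 37.4 CPM, log2 ratio 1.95) were among them too. Pakap stands under 2 gene IDs that overlap on the same strand, and its reads may be split between them. Aspn (asporin), a small proteoglycan that binds TGF-beta, stood at 31.1 CPM in Control and 99.5 CPM in AngII+HS (log2 ratio 1.68, 95% counting interval 1.53 to 1.83).

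The 12 genes with the lowest ratios, under the same limits on level and on T and B cells, stood at up to 376 CPM in Control. Some of them met the T and B cell limit only in Control. In AngII+HS, for example, Ikzf4 stood at 8.54 CPM against 11.8 CPM in T and B cells, and Thoc6 at 30.4 against 15.6 CPM. Gm17056, a long non-coding RNA (chromosome 12, 40248655 to 40251104, plus strand, GRCm39), stood at 144 CPM in Control and 14.98 CPM in AngII+HS (log2 ratio -3.27, 95% counting interval -3.58 to -2.97). It overlaps the start of Lsmem1 on the opposite strand, which was lower too (376 and 88.1 CPM, log2 ratio -2.09). The counting pipeline, Cell Ranger, uses the strand of reads. The other 10 were Xkr4, 6030407O03Rik, Kctd16, Thoc6, B830012L14Rik, Ikzf4, Epha7, Caprin2, Bex4 and Sytl5, with log2 ratios from -2.45 to -1.73 and Control levels from 32.6 to 167 CPM. Epha7, an ephrin receptor, stood at 124 CPM in Control and 34.8 CPM in AngII+HS (log2 ratio -1.83, 95% counting interval -2.04 to -1.63). In a cluster of 99 Control members and 6 AngII+HS members with the highest Malat1 level (73136 CPM in Control), a nuclear RNA, Gm17056 stood at 489 CPM and Lsmem1 at 906 CPM, and Acta2 at 5040 CPM.

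Of 13 measured HOX genes, which carry the positional identity of a vessel segment, Hoxb4 (19.5 and 8.86 CPM, log2 ratio -1.14) and Hoxa5 (55.2 and 26.6 CPM, log2 ratio -1.05) were past 2-fold lower, and the more posterior Hoxc10 and Hoxa10 had log2 ratios of -0.03 and 0.06. Sost, the Wnt inhibitor sclerostin, stood at 934 CPM in Control and 1283 CPM in AngII+HS (log2 ratio 0.46, 95% counting interval 0.42 to 0.49), and the chondrogenic factor gene Sox9 at 24.2 CPM in Control and 26.3 CPM in AngII+HS. Of the 10 measured genes of lipid handling and lysosomes 4 were past 2-fold higher, but Apoe, the gene with the highest ratio, stood at 319 CPM in AngII+HS members and 1012 CPM in AngII+HS T and B cells. Cell cycle genes were scarce, with 2 of 10 measured, and 1 of these, the DNA topoisomerase gene Top2a, was past 2-fold higher (1.51 and 18.5 CPM, log2 ratio 3.62). A UMI of Top2a was found in 0.35% of Control and 1.40% of AngII+HS members thinned to 2000 UMIs and one of Mki67, a gene of dividing cells, in 0.22% and 1.02%. In the T and B cells Top2a was found in 7.14% and 7.42% and Mki67 in 5.102% and 4.98%.

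Contractile and matrix levels varied more among the cells of the AngII+HS library. With every member thinned to 2000 UMIs, which left out 44 Control and 26 AngII+HS members, the contractile genes took a median of 4.15% of a cell's UMIs in Control and 4.35% in AngII+HS. The range from the 10th to the 90th percentile was 2.54 to 5.90% in Control and 1.72 to 7.83% in AngII+HS, and the SD over cells was 1.38 and 2.34%. Genes of the 5 matrix groups took a median of 3.05% in Control and 5.25% in AngII+HS, with an SD of 0.958 and 2.93%. In AngII+HS the matrix share had a main peak between 5 and 5.5% (9.68% of the cells) and a smaller one between 1 and 1.5% (6.75%), with 3.18% of the cells between 3 and 3.5%. Immediate early genes took 3.40% and 1.40%, with a range from the 10th to the 90th percentile of 1.45 to 5.35% in Control and 0.35 to 3.45% in AngII+HS and an SD of 1.504 and 1.25% at means of 3.43 and 1.67%, so that their SD was smaller in AngII+HS but larger relative to the mean. Between contractile and matrix shares Spearman's rho was -0.04 over 3178 Control cells and -0.03 over 785 AngII+HS cells, given as descriptions over cells of 1 library each, while the contractile share was higher in cells with more UMIs before thinning (rho 0.14 and 0.43). The part of depth in these spreads was not tested.

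**Figure D4:**
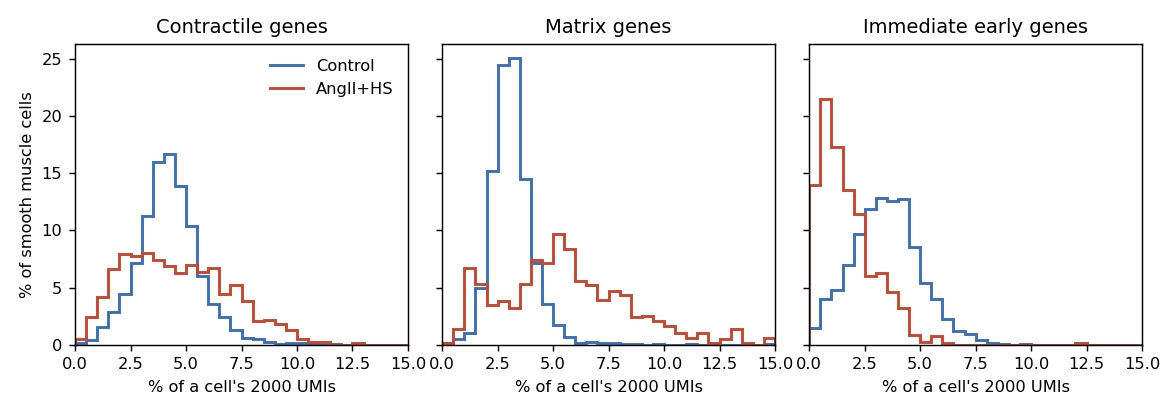
Share of a cell's 2000 UMIs on contractile, matrix and immediate early genes (x axis, in %) against the percentage of smooth muscle cells in each step of 0.5% (y axis), for 3178 Control members in blue and 785 AngII+HS members in red. The AngII+HS lines are broader for contractile and matrix genes, with a second peak of low matrix share, and lie to the left for immediate early genes.

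The genes most uneven between cells differed between the libraries. By the ratio of variance to mean over thinned members, the first 10 in Control were Malat1, Mgp, mt-Atp6, Rgs5, Tango6, Fos, Acta2, Tmsb4x, Thbs1 and mt-Co3, with ratios from 11.97 to 5.16. The first 10 in AngII+HS were Igkc, Igha, Malat1, Mgp, Cxcl2, Spp1, Eln, Ccl4, mt-Atp6 and Tmsb4x, with ratios from 346 to 15.9. Of these, Igkc, Igha, Cxcl2, Spp1 and Ccl4 are known from leukocytes. Eln had a ratio of 2.81 in Control and 20.7 in AngII+HS, with up to 49 and 145 UMIs in a cell, and was found in 82.4% and 79.6% of the cells, so that its higher level came with a wider spread and not with more cells that held it. Mgp likewise went from a ratio of 10.4 to 35.7 and was found in 97.1% and 89.0% of the cells.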

How the data were processed

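Single-cell RNA was measured with 10x droplet libraries from 2 pools of mouse suprarenal abdominal aorta, 1 Control and 1 AngII+HS. The authors deposited raw UMI counts per gene and barcode for 33696 genes, made per the file headers with Cell Ranger 8.0.1, and the submitters' processing notes name mm10, while 33185 of the gene IDs are in GENCODE M39 on GRCm39. Each matrix was assigned to its recorded sample. The barcode lists deposited beside the matrices hold the other matrix's number of barcodes (24804 and 11448) and were not used. The lists share 67 barcodes.

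Counts were summed over the members of a library and divided by the sum over all genes (CPM). All log2 ratios set AngII+HS against Control. Those of single genes carry no added count, and medians have 0.5 UMIs added. Intervals are 95% exact Poisson intervals, or Clopper-Pearson intervals for shares, and cover counting error only. A floor of 3 UMIs was used for a count of 0. The members and gene groups were chosen with earlier results of these data known. Fibroblasts (1459 and 2723 cells) held at least 10 UMIs of Dcn and Lum, and T and B cells (99 and 1171 cells) at least 3 UMIs of Cd3d, Cd3e, Cd3g, Cd79a and Cd79b and at least 1 of Ptprc, both under 5 UMIs of Myh11, Cnn1 and Lmod1. Named genes are the rule genes and many of the most abundant and most changed members of each group. They also include the 12 highest and 12 lowest ratios among genes with a mean of at least 20 CPM, a UMI in at least 10% of the members of a library and at least 3 times the level of T and B cells (1335 of 6014 genes), and the 10 genes with the highest variance to mean in each library. Some of the 12 highest and 12 lowest met the T and B cell limit only in the library where they were higher. Other group members and the genes of the clusters were named after their values were seen. No doublets were removed in the main analysis. Promoters are those of RefSeq on GRCm38.p6, of which 27025 genes had one. Gene places are those of GENCODE M39 on GRCm39, a build that was not mixed with the promoters. Alternatives were other thresholds and limits of the rule, removal of the highest Scrublet scores, a stricter cell filter, thinning, other scalings (TMM by edgeR, without mitochondrial genes, equal weight per cell), subtraction of T and B cell levels, other filters on low values and, chosen after seeing the data, no limit on Kcnj8, Abcc9 and Steap4, a threshold of 20 UMIs, scaled subtraction and leaving out either of 2 clusters. Ratios were also computed on simulated data, and no result of that is given here. Python 3.11.15, numpy 2.4.6, scipy 1.17.1, pandas 2.3.3, scanpy 1.11.5, matplotlib 3.10.9, R 4.3.3 and edgeR 4.0.16 were used. Some genes and the study's other assays are not reported here.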

Additional observations from a re-analysis of the deposited data

Results flagged for a closer look

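Some ratios had opposite signs in smooth muscle cells and in fibroblasts of the same libraries. With 1 library per condition these differences were not tested. Heat shock genes had a median log2 ratio of -0.41 in smooth muscle cells and 0.58 in fibroblasts, and genes of endoplasmic reticulum folding 0.21 and -0.74. With T and B cell levels subtracted from the smooth muscle cells, the latter median of 0.21 became -0.22, and -0.33 with scaled subtraction, where the median over all genes became -0.24 and -0.06. T and B cells make these folding genes themselves (summed level 2861 and 4637 CPM), so that the subtraction also takes off their own expression. Procr had ratios of 3.80 and -0.56, from 4.87 to 67.6 CPM in smooth muscle cells and from 169 to 115 CPM in fibroblasts. Ntrk2 had ratios of 2.13 and -2.34, Sparcl1 of 1.68 and -1.58, and Aspn of 1.68 and -0.91. For Procr and Ntrk2 most of the AngII+HS smooth muscle signal stood in the Notch3-rich cluster, and outside it the log2 ratios were 4.01 for Procr, whose mean there was under 10 CPM, 1.11 for Ntrk2, 1.67 for Sparcl1 and 1.75 for Aspn. The AngII+HS T and B cells held 22.1 CPM of Procr, more than the AngII+HS members outside the cluster.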

How the results depend on the processing

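No paired analysis was possible because each condition had 1 library. Rerunning the comparison with 18 alternatives, 13 planned and 5 added after seeing the data, gave for the log2 ratio of the share (-3.11) values of -2.63, -3.35 and -3.65 at 2, 10 and 20 UMIs of the rule genes, -2.505 with stricter limits on other cell types' genes, -3.36 with the rule applied to thinned cells, -3.53 without the Kcnj8, Abcc9 and Steap4 limit and -3.28 without the Notch3-rich cluster. Genes at least 2-fold higher (307) numbered 570 at 2 UMIs, 548 and 84 at mean levels of 5 and 50 CPM and 4267 with no filter, and genes at least 2-fold lower (211) numbered 318 at 20 UMIs, 92 at 50 CPM, 1658 with no filter, 656 with T and B cell levels subtracted and 431 with scaled subtraction. The contractile median (0.06) was -0.12 at 2 UMIs, -0.036 with TMM scaling, 0.12 and 0.17 at 10 and 20 UMIs, 0.17 without the highest Scrublet scores and 0.15 for thinned cells. The collagen median (1.03) was 0.91 with stricter limits, 1.16 for thinned cells and with equal weight per cell, 0.34 with T and B cell levels subtracted and 0.89 with scaled subtraction. The elastic fibre median (0.45) was 0.34 at 2 UMIs and 0.57 at 5 CPM and with no filter. The immediate early median (-0.96) was -0.91 at 20 UMIs, -1.03 without the highest Scrublet scores, -0.93 for thinned cells, -1.06 with TMM scaling, -1.01 at 50 CPM, and -1.63 and -1.08 with full and scaled subtraction. The inflammation median (0.20) was 1.14 at 2 UMIs, 0.051 at 10, -0.079 at 20, 0.73 without the Kcnj8, Abcc9 and Steap4 limit, 0.76 for thinned cells, 0.40 with equal weight and with no filter, 0.61 at 5 CPM, -0.23 at 50 CPM, -0.049 without the highest Scrublet scores, -0.13 without the Notch3-rich cluster, and -1.68 and -0.81 with full and scaled subtraction. Full subtraction also turned Col1a1 (-12.12, with nothing left in AngII+HS), Col3a1 (-1.08), Vcam1 (-1.36) and the medians of endoplasmic reticulum folding (-0.22, and -0.33 scaled), glycolysis and hypoxia (-1.08, and -0.035 scaled), interferon and MHC class I (-1.43), lipid handling (-0.091) and respiration (-0.75), and the median over all genes was -0.24. T and B cells make many of these genes themselves, so that for them the subtraction does not stand for RNA from other cells. Rgs5 (-0.04) was 0.081, 0.0062, 0.12 and 0.095 without the highest Scrublet scores, without the Notch3-rich cluster, for thinned cells and with equal weight, and the ion channel median (-0.11) was 0.070 with stricter limits and 0.10 with equal weight. Ratios that fell under 2-fold were those of Ankrd1 (0.93) and Vcam1 (0.46) with stricter limits, Notch3 (0.70 at 20 UMIs and 0.46 without its cluster), Col1a1 (0.997 with scaled subtraction), Eln (0.87 for thinned cells, 0.93 without the highest Scrublet scores and 0.97 at 20 UMIs), Fos (-0.98 and -0.93 at 10 and 20 UMIs and -0.97 without the cluster), Ltbp4 (-0.95 without the cluster and -0.94 for thinned cells) and Hk2 (-0.99 for thinned cells). The causes were not tested. Medians near 0 took both signs, between -0.53 and 0.04 for smooth muscle factors, -0.22 and 0.21 for Notch, -0.37 and 0.24 for TGF-beta, -0.20 and 0.12 for vasoactive and -0.43 and 0.46 for osteochondrogenic genes. The medians of the other groups and the ratios of the other named genes that were recomputed kept their sign. Subtraction can take a level to 0, and fewer genes are measured at 50 CPM. The AngII+HS members gave fewer UMIs, and genes under a mean of 10 CPM were left out of counts and medians, and with 1 library per condition the spread between animals is unknown.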

Other observations

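Some RNAs in the members are known from other cells. The 4 globin genes summed to 314 CPM in Control and 185 CPM in AngII+HS, and the 6 Schwann cell markers to 13.4 and 26.6 CPM, none of them at a mean of 10 CPM. Of 5 adipocyte markers only Cfd was measured, at 0.0672 CPM in Control and 21.7 CPM in AngII+HS, against 110 CPM in the AngII+HS T and B cells. The mesothelial markers Lrrn4, Krt19 and Msln had no UMI in either library. Tnnt2, a troponin of heart muscle, stood at 7.09 CPM in Control and 21.4 CPM in AngII+HS and 3.54 CPM in the AngII+HS T and B cells. A cell with 2284 and a cell with 2165 Igkc UMIs stood apart in AngII+HS, where the next held 33, and with it these cells held 80.7% of the Igkc UMIs of the members. The cells with the highest Scrublet doublet scores, taken at a rate of 0.8% for every 1000 cells of a library, included 273 Control members (8.47%) and 144 AngII+HS members (17.8%). Over all filtered cells the shares were 9.03% and 19.65%. The number of cells in a library fixed these, so the members' shares do not compare doublets between the libraries.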
